A study of Mus musculus with 4 samples.

Results

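The 10 genes described here encode the core and naive pluripotency transcription factors of mouse embryonic stem cells. They are Pou5f1 (Oct4), Sox2, Nanog, Klf2, Klf4, Klf5, Esrrb, Tbx3, Tfcp2l1 and Zfp42 (Rex1), listed by name, 10 of the 55353 gene symbols counted. RNA was sequenced from 2 libraries of Ssrp1 KO cells and from 2 libraries of wild-type cells, the controls. All were E14 embryonic stem cells, a mouse line that grows without feeder cells, kept on gelatin in medium with serum and LIF. Ssrp1, a subunit of the histone chaperone FACT, was targeted with Cas9 and a guide RNA. How many clones were used, and whether replicate libraries stem from separate cultures, is not given by the labels; p-values therefore measure only the spread between these libraries, which may be technical. The labels also mention transfection of wild-type cells with a pSuper puro vector and puromycin selection, without saying whether these controls received it.

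Pou5f1 and Sox2 bind DNA side by side at many enhancers of stem cell genes, and with Nanog they form the core of the pluripotency network. Klf2, Klf4, Klf5, Esrrb, Tbx3 and Tfcp2l1 belong to the naive layer, which keeps the core running in the state of the pre-implantation epiblast and receives LIF and Wnt signals. Zfp42, a zinc finger gene derived from Yy1, is widely used as a reporter of the naive state.

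Total counts were 22855451 and 23030224 in the KO libraries and 22611434 and 25344190 in the controls. Ssrp1 itself was not called lower, at 305.5 and 327.3 CPM in the KO libraries and 282.2 and 305.7 CPM in the controls, where CPM are counts scaled to a common library size by TMM (edgeR quasi-likelihood adjusted p 0.226). It was called higher with libraries scaled by size alone (log2 fold change 0.19, adjusted p 0.031) and without labelled knockout library 1 (0.16, adjusted p 0.011), against 0.11 with all; leaving out each library gave 0.041 to 0.16. The transcript therefore gives no check of the labels, and the treated samples are called the libraries labelled knockout. Supt16, the other FACT subunit, averaged 1015 ± 54.1 CPM in the libraries labelled knockout and 891.4 ± 12.8 CPM in the controls (SD, n = 2; edgeR adjusted p 0.018), a call lost without control 1 (0.235) or control 2 (0.139). Rpgrip1, a protein-coding gene on the opposite strand, covers 21% of the exon bases of Supt16. Whether the counting used strand is not given. Gm26917 and Gm42418, which collect reads of ribosomal RNA type, held 6.30% and 4.64% of counts in the libraries labelled knockout, against 9.72% and 10.3% in the controls. With these and the mitochondrially encoded genes left out before scaling, 8 of the 10 factors were called lower and 1 higher, as with them.

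Most of the 10 factors were lower in the libraries labelled knockout, by modest amounts, and Nanog was higher. At an adjusted p under 0.05 (edgeR, Benjamini-Hochberg over the 17482 genes tested), 8 factors fell, 1 rose and 1, Zfp42, passed in neither direction. The count of rises was 0 without control 1 and 0 without control 2. Among all genes tested 33.6% were called, 17.2% lower and 16.5% higher. Among the 1963 genes at least as abundant as Klf2, the least abundant of the 10 by CPM, 50.6% were called, 23.4% lower and 27.2% higher. The median log2 fold change of the 10 was -0.34, against 0.0035 over all genes tested. All 10 passed the filter on low counts in both groups. Since the RNA is from whole cultures, fewer cells expressing a gene and less RNA per cell cannot be told apart.

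**Figure D1:**
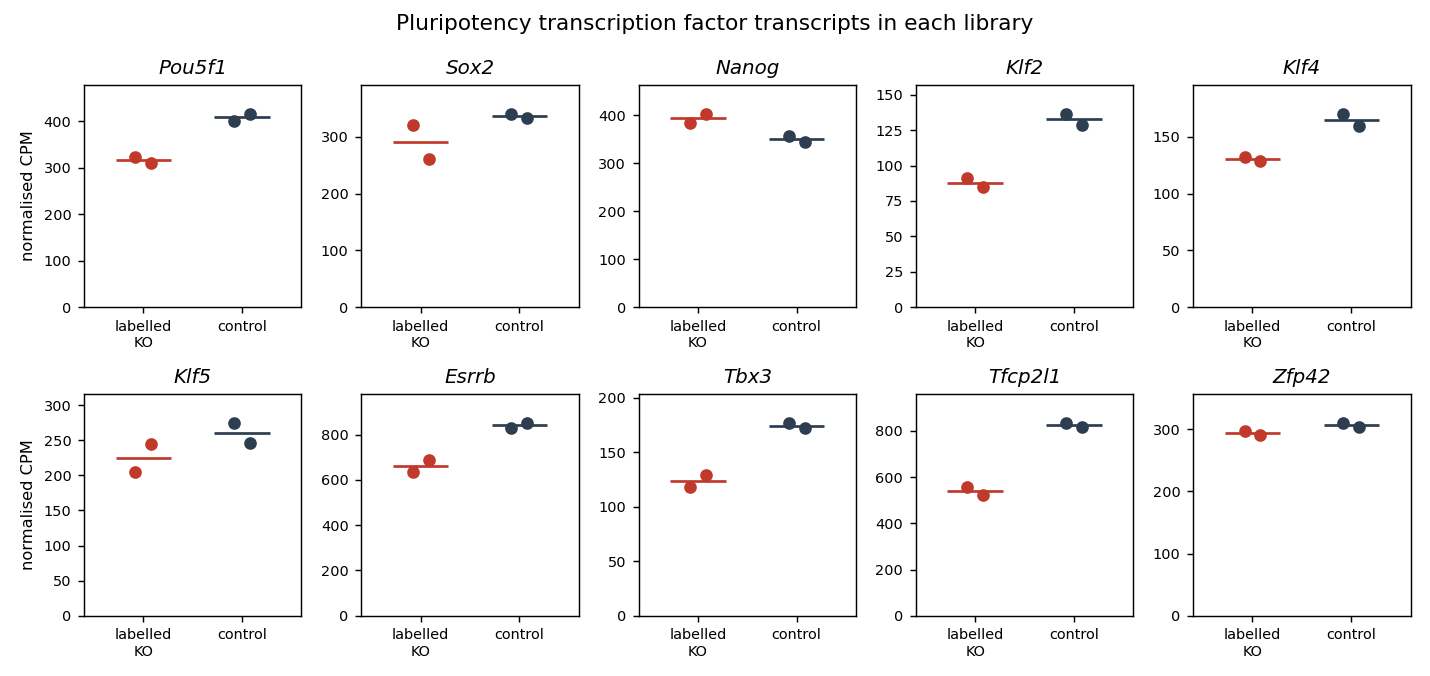
Normalised CPM (vertical axes, from 0) of the 10 factors in each library, labelled knockout in red and control in dark blue; points are libraries and lines are means of 2. Nanog is the 1 gene with both labelled knockout points above the controls, and for Klf5 and Sox2 the 2 labelled knockout points lie far apart.

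As embryonic stem cell markers the 10 were abundant, between percentiles 88.8 and 99.3 of mean CPM among tested genes. Per kilobase of merged exon, which corrects for gene length, the same 4 of them had the highest levels in both groups. The exons of all annotated transcripts are merged. This length can exceed that of the RNA expressed, so the order between genes is approximate. In the libraries labelled knockout these were Nanog at 175.7 ± 5.97, Zfp42 at 155.9 ± 2.28, Sox2 at 141.7 ± 20.8 and Pou5f1 at 140.7 ± 3.80 CPM per kb (SD, n = 2). In the controls they were Pou5f1 at 181.7 ± 4.62, Sox2 at 163.8 ± 2.43, Zfp42 at 163.0 ± 2.75 and Nanog at 156.4 ± 3.57 CPM per kb (SD, n = 2). Pou5f1 thus stood first of the 4 in the controls and last by its mean in the libraries labelled knockout, where neither it nor Zfp42 differed from Sox2 beyond the spread. Sox2 and Zfp42 lay within each other's spread in the controls.

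Esrrb came next in both groups, at 109.4 ± 6.47 CPM per kb in the libraries labelled knockout and 139.0 ± 2.83 CPM per kb in the controls. After it, Tfcp2l1 and Klf2 were at 57.2 ± 2.59 and 47.7 ± 2.52 CPM per kb in the libraries labelled knockout, and at 87.4 ± 1.57 and 71.8 ± 2.97 CPM per kb in the controls. Klf5 and Klf4 could not be ordered within their spread in either group, nor Klf2 and Klf5 in the libraries labelled knockout. Klf5 was at 43.1 ± 5.44 and Klf4 at 42.8 ± 0.952 CPM per kb in the libraries labelled knockout, and at 50.1 ± 3.89 and 54.1 ± 2.46 CPM per kb in the controls. Tbx3 was lowest, at 18.7 ± 1.16 CPM per kb in the libraries labelled knockout and 26.4 ± 0.564 CPM per kb in the controls.

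Of the 3 core factors Pou5f1, the POU-domain factor without which the pluripotent state is lost, had the largest change. Pou5f1 (chromosome 17, 35506018 to 35510772, mm10) was at 322.3 and 310.2 CPM in libraries labelled knockout and at 401.0 and 415.7 CPM in the controls. The groups were well apart. Its log2 fold change of -0.37 ± 0.06 (SE over 2 libraries per group; edgeR adjusted p 9.3e-05) was a fall to 0.774 of the control level, and leaving out any 1 library kept the call. An antisense gene, Gm19553, covers 14.1% of the merged exon bases of Pou5f1. The series calls the libraries strand-specific, but whether the counting used strand is not given in the sources used here.

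Sox2, the HMG-box partner of Pou5f1, moved less evenly. Sox2 (chromosome 3, 34650405 to 34652461) was at 321.7 and 261.3 CPM in libraries labelled knockout and at 340.5 and 333.4 CPM in the controls. Labelled knockout library 1 lay just under the controls and library 2 well under them. The log2 fold change was -0.21 ± 0.08 (edgeR adjusted p 0.041), and without labelled knockout library 2 it was -0.07 (adjusted p 0.334). The call was also lost without control 1 (edgeR adjusted p 0.154), without control 2 (0.098) and under DESeq2 (0.080). Sox2 lies within the long noncoding RNA gene Sox2ot on the same strand, with 0 bases of shared exon. Sox2ot went the other way, at 22.9 and 24.1 CPM in libraries labelled knockout and 18.9 and 17.1 CPM in the controls. Its log2 fold change was 0.39 ± 0.11 (edgeR adjusted p 0.011), a call lost without control 2 (adjusted p 0.148).

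Nanog, a homeodomain factor that lets stem cells renew without LIF when overexpressed, was the 1 factor that rose. Nanog (chromosome 6, 122707489 to 122714633) was at 384.4 and 403.3 CPM in libraries labelled knockout and at 356.3 and 345.0 CPM in the controls. The groups did not overlap here, nor for any of the other 9 factors, as for 66.6% of all tested genes, 33.3% with the libraries labelled knockout lower. The log2 fold change of Nanog was 0.17 ± 0.06 (edgeR adjusted p 0.039; 95% interval 0.04 to 0.29), a level 12.3% above the controls. It was 0.18 without control 1 and 0.14 without control 2, and in both cases the call was lost (edgeR adjusted p 0.207 and 0.356).

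The ratio of the counts of 2 genes in 1 library does not depend on how libraries are scaled. Several such ratios, chosen after the counts had been seen and not tested, set the groups apart. Nanog counts were 1.19 and 1.30 times those of Pou5f1 in the libraries labelled knockout, and 0.889 and 0.830 times in the controls. That is a difference of 0.54 on the log2 scale, against an SD of 0.09 between the libraries labelled knockout and 0.07 between the controls. Pou5f1 had more reads than Nanog in both controls and fewer in both libraries labelled knockout. Zfp42 counts were 0.919 and 0.935 times those of Pou5f1 in the libraries labelled knockout and 0.774 and 0.729 times in the controls. The ratio of Nanog to Tfcp2l1 was 0.690 and 0.772 in the libraries labelled knockout and 0.426 and 0.423 in the controls, a log2 difference of 0.78. The Sox2 to Pou5f1 ratio overlapped between the groups, at 0.998 and 0.842 in the libraries labelled knockout and 0.849 and 0.802 in the controls.

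**Figure D2:**
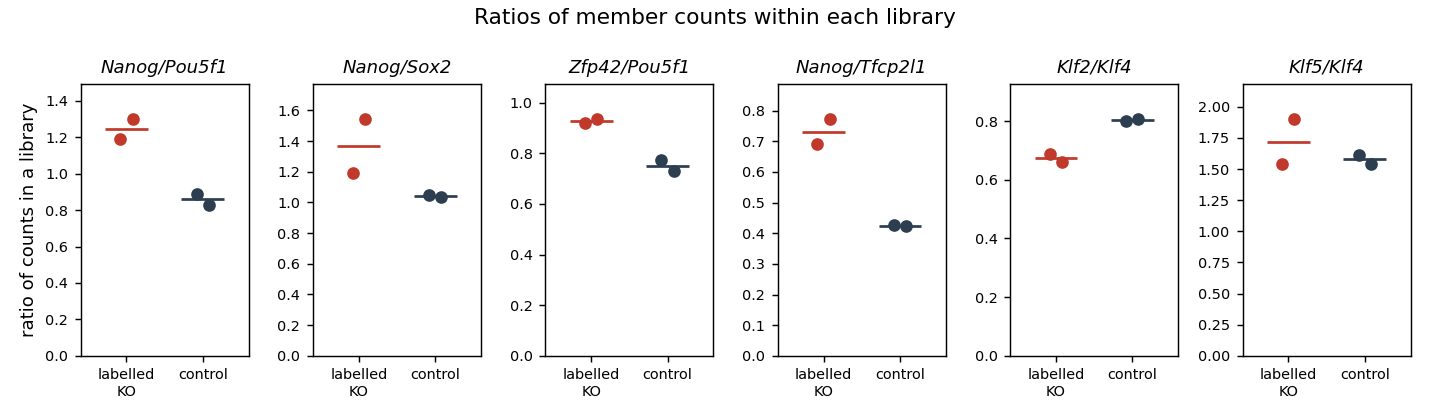
Ratio of the counts of 2 factors within each library (vertical axes, from 0), labelled knockout in red and control in dark blue, with lines at the means of 2 libraries. The groups are apart for Nanog/Pou5f1, Nanog/Sox2, Zfp42/Pou5f1, Nanog/Tfcp2l1 and Klf2/Klf4, and overlap for Klf5/Klf4.

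In the naive layer the largest falls were those of Tfcp2l1 and Klf2. Tfcp2l1 (chromosome 1, 118627945 to 118685168), a CP2-family factor that sustains self-renewal downstream of LIF and Stat3, was at 556.7 and 522.2 CPM in libraries labelled knockout and at 835.7 and 814.8 CPM in the controls. It fell by 34.6%, a log2 fold change of -0.61 ± 0.06 (edgeR adjusted p 1.4e-07). The small nuclear RNA gene Gm23497 shares 1.38% of its exon bases on the same strand. Klf2 (chromosome 8, 72319033 to 72321656), a Krüppel-like zinc finger factor that helps hold the naive state, was at 91.3 and 84.8 CPM in libraries labelled knockout and at 136.6 and 128.8 CPM in the controls. Its log2 fold change was -0.59 ± 0.07 (edgeR adjusted p 1.7e-06). In both genes the groups were far apart relative to their spread. Larger changes were common in these libraries: by size of log2 fold change, in either direction, Tfcp2l1 ranked 3901 and Klf2 ranked 4098 of the 17482 genes.

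Tbx3 and Esrrb fell too. Tbx3 (chromosome 5, 119670669 to 119684724), a T-box repressor that restrains differentiation, was at 118.3 and 129.2 CPM in libraries labelled knockout and at 177.3 and 172.1 CPM in the controls. The groups were well apart, with a log2 fold change of -0.50 ± 0.07 (edgeR adjusted p 9.6e-06). Its antisense gene Tbx3os1 shares 115 exonic bases with it and had between 16 and 26 counts per library (log2 fold change 0.12 ± 0.46, edgeR adjusted p 0.869); its sign turned without labelled knockout library 1 or control 1. Tbx3os2, a noncoding gene next to Tbx3, had between 13 and 36 counts (-0.82 ± 0.44, adjusted p 0.164). Esrrb (chromosome 12, 86361117 to 86521628), an orphan nuclear receptor and target of Nanog and of Wnt signalling, was at 633.5 and 688.9 CPM in libraries labelled knockout and at 828.1 and 852.3 CPM in the controls. Both labelled knockout values lay well under both controls, and the log2 fold change was -0.35 ± 0.06 (edgeR adjusted p 1.7e-04).

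The 3 Krüppel-like factors, which can stand in for each other in mouse stem cells, differed in how evenly they moved. Klf4 (chromosome 4, 55527143 to 55532466), a reprogramming factor induced by LIF through Stat3, was at 132.5 and 128.4 CPM in libraries labelled knockout and at 170.3 and 159.7 CPM in the controls. Both groups were tight, and the log2 fold change was -0.34 ± 0.07 (edgeR adjusted p 4.6e-04). Klf5 (chromosome 14, 99298691 to 99315036), a paralogue active in early embryos and intestinal epithelium, was at 204.1 and 244.1 CPM in libraries labelled knockout and at 275.1 and 246.5 CPM in the controls. Labelled knockout library 2 thus nearly reached control 2. The Klf5 log2 fold change was -0.22 ± 0.08 (edgeR adjusted p 0.035). The call was lost without labelled knockout library 1 (log2 fold change -0.09, edgeR adjusted p 0.181), without control 1 (-0.15, adjusted p 0.348) and under DESeq2 (adjusted p 0.074).

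Klf2 counts were 0.689 and 0.660 times those of Klf4 in the libraries labelled knockout and 0.802 and 0.807 times in the controls. Klf2 was thus lower relative to Klf4 in both libraries labelled knockout, by 0.25 on the log2 scale, with an SD of 0.04 between the libraries labelled knockout and 0.01 between the controls. The Klf5 to Klf4 ratio overlapped, at 1.54 and 1.90 in the libraries labelled knockout and 1.62 and 1.54 in the controls. The odd library was not the same for the uneven factors: Sox2 was the lower in labelled knockout library 2, and Klf5 in library 1.

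Zfp42 stayed closest to its control level. Zfp42 (chromosome 8, 43295063 to 43306980) was at 296.2 and 290.1 CPM in libraries labelled knockout and at 310.2 and 302.9 CPM in the controls. The groups nearly touched. Its log2 fold change was -0.06 ± 0.06 (edgeR adjusted p 0.449) with a 95% interval from -0.19 to 0.06, and it was 0.02 when libraries were scaled by size alone. That interval lies above those of Tfcp2l1 (-0.74 to -0.49), Klf2 (-0.74 to -0.45), Tbx3 (-0.64 to -0.36), Pou5f1 (-0.50 to -0.24), Esrrb (-0.47 to -0.22) and Klf4 (-0.48 to -0.20). It overlaps those of Sox2 (-0.37 to -0.05), Klf5 (-0.38 to -0.06) and Nanog (0.04 to 0.29). Summed, the 10 factors took 0.313% and 0.316% of counts in the libraries labelled knockout and 0.374% and 0.364% in the controls.

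**Figure D3:**
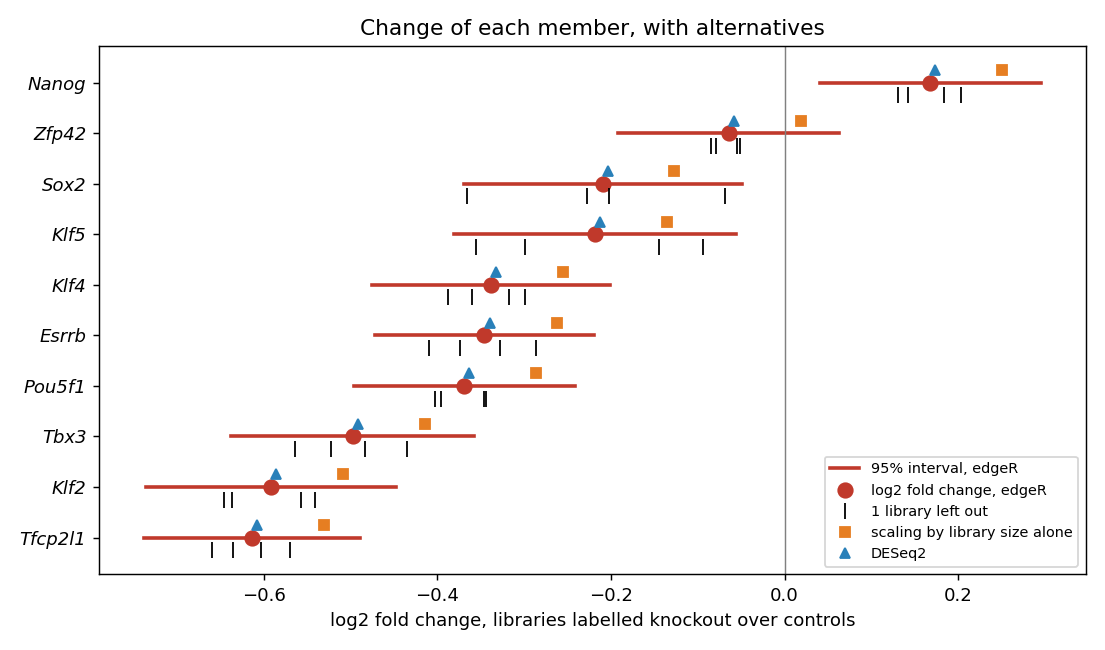
Log2 fold change of each factor, libraries labelled knockout over controls (horizontal axis), with its 95% interval from edgeR in red; ticks leave out 1 library each, squares use scaling by library size alone and triangles DESeq2. Tfcp2l1, Klf2, Tbx3, Pou5f1, Esrrb and Klf4 stay below 0 throughout. Sox2 and Klf5 do so too, though they were not called in every fit, and Nanog stays above 0. The interval of Zfp42 spans 0, and its value turns above 0 when libraries are scaled by size alone.

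**Figure D4:**
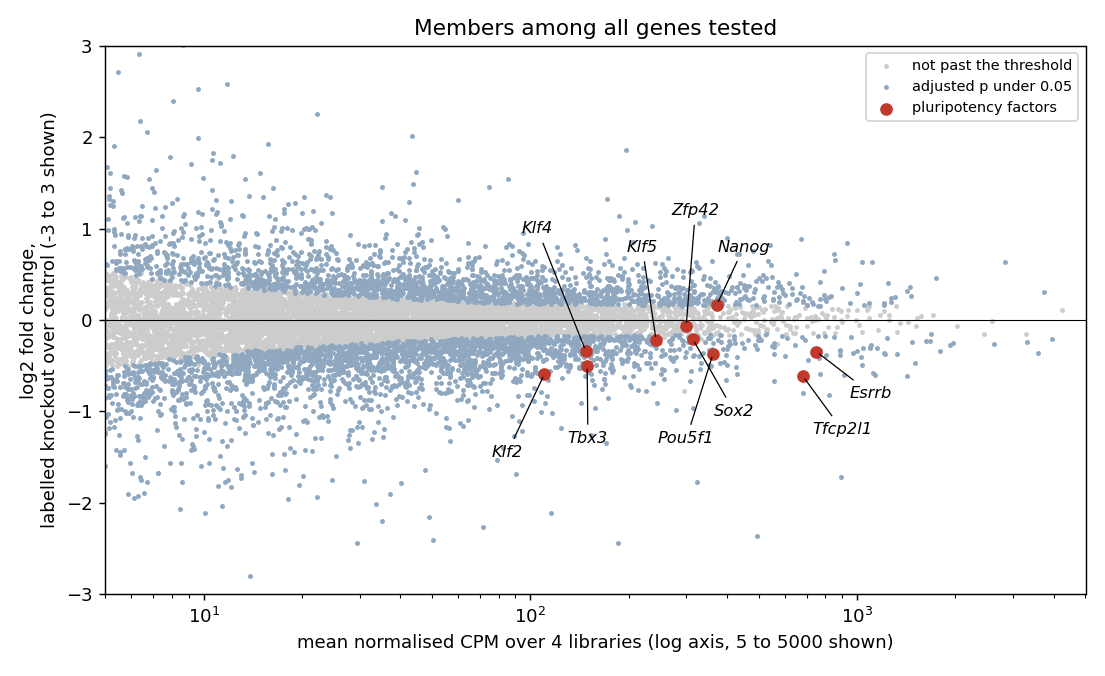
Log2 fold change (vertical axis) against mean normalised CPM over 4 libraries (log axis) for tested genes, called genes in blue and the 10 factors in red. The factors sit among abundant genes, with changes between -0.61 and 0.17.

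Promoter windows show which of the network's own motifs lie close to the start of each gene. RefSeq windows of 300 bases (250 before the start and 50 after, build GRCm38.p6) were matched by symbol for 8 of the 10, all but Klf5 and Tbx3. Where a gene had several windows the first listed was used. The sequences run 5′ to 3′ on the gene's strand, and capitals mark a match on either strand to ATGCAAA (POU), ACAATG (SOX), CCACCC (KLF) or TTCNNNGAA (STAT). Nanog (chr6:122707239-122707538, plus strand), Sox2 (chr3:34649745-34650044, plus strand) and Zfp42 (chr8:43306960-43307259, minus strand) are shown as the 3 windows that hold the POU letters. Pou5f1 (chr17:35505782-35506081, plus strand) and Klf2 (chr8:72318812-72319111, plus strand) are shown as genes called lower without them. For Sox2 the RefSeq start lies upstream of the GENCODE start, so its window ends before the GENCODE gene begins.
Nanog: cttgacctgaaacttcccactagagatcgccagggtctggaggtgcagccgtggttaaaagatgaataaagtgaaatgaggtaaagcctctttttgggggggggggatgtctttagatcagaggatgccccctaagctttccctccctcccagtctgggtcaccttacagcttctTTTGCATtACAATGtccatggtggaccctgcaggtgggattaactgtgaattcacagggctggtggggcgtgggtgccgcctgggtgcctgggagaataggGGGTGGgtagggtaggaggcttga
Sox2: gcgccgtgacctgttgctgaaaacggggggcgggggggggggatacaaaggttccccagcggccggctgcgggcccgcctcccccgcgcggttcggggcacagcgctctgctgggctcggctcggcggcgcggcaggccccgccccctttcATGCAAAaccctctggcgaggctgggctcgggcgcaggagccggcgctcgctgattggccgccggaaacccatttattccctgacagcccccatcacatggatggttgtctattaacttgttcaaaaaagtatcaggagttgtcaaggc
Zfp42: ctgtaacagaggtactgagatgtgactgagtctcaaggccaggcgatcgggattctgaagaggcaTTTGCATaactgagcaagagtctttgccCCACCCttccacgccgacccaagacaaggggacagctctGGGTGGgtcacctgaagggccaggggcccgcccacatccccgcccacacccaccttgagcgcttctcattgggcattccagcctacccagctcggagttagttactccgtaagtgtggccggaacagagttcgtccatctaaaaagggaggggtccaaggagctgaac
Pou5f1: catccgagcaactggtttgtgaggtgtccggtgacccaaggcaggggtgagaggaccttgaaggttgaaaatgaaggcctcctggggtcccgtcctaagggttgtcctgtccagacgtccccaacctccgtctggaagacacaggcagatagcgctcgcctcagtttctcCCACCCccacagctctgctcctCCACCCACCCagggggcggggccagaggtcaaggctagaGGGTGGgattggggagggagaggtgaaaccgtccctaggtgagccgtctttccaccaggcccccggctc
Klf2: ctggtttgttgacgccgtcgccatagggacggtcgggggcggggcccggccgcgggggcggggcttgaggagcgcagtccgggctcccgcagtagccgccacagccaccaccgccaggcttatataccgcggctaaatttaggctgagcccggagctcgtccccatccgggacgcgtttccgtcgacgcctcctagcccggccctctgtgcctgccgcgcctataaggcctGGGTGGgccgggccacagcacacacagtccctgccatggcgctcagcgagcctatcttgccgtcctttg

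In the Nanog window the POU letters end 69 bases before the start and the SOX letters begin 67 bases before it, leaving 1 base between them. A composite element at which Pou5f1 and Sox2 bind is known in the proximal promoter of mouse Nanog. The POU letters occur in 3 of the 8 windows and in 4.59% of all 27025 promoters. Those 3 genes are the factor that rose (Nanog), the factor that was not called (Zfp42) and 1 of those called lower (Sox2). The SOX letters occur in the windows of Nanog and Esrrb, and in 12.8% of all promoters. KLF letters were present in 5 of the 8 windows (Pou5f1, Nanog, Klf2, Esrrb and Zfp42), against 30.9% of all promoters, with 4 matches in that of Pou5f1, of which 2 overlap each other. The GC content of the windows ran from 54.3% to 74.3%, against a median of 52.7% over all promoters.

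STAT letters were found in the Esrrb window and in 8.47% of all promoters. The letters AAGGTCA (ESRRB, 4.66% of promoters), GGTGTGA (TBX, 3.96%) and the paired CCAG letters of TFCP2L1 (3.39%) occurred in 0 of the 8. Neither the Klf4 nor the Tfcp2l1 window held any of the 7 motifs. Many enhancers known to control these genes lie outside such windows.

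**Figure D5:**
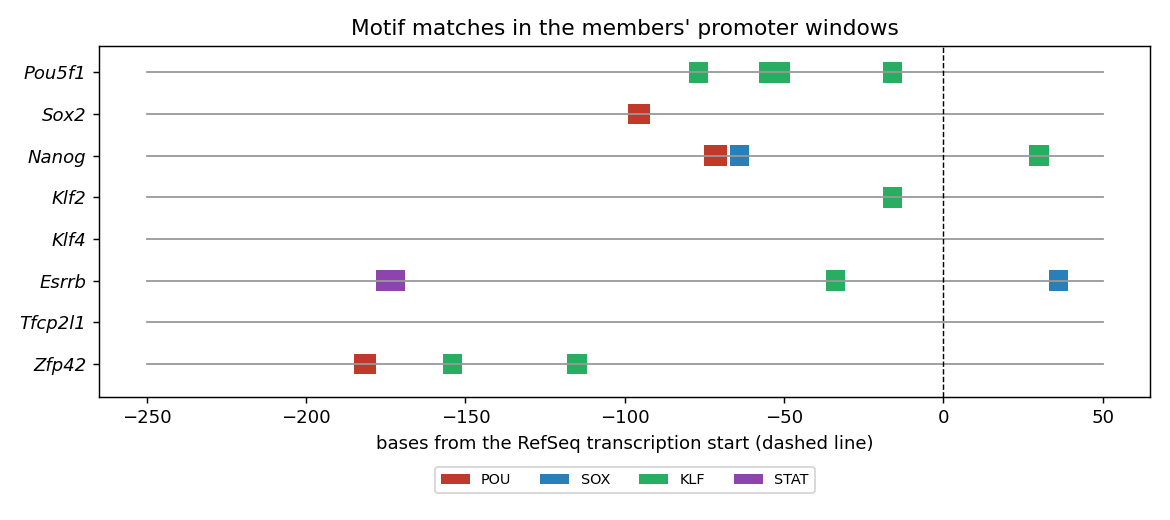
Positions of motif matches (coloured boxes, named by factor family) along 8 promoter windows, in bases from the RefSeq transcription start (horizontal axis; dashed line at the start). Matches to the POU letters lie in the windows of Sox2, Nanog and Zfp42, and in that of Nanog the POU and SOX matches adjoin.

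Genes known to act with the core factors were called in both directions. Of 22 partner genes tested, 7 rose and 2 fell, with a median log2 fold change of 0.18 against 0.0035 over all genes tested. Among all genes tested 16.5% were called higher and 17.2% lower, and among the 1963 abundant genes given above 27.2% and 23.4%. Some partners, such as Myc (mean 10.4 CPM), were less abundant than that set. Stat3, the transcription factor that LIF activates and that induces Klf4 and Tfcp2l1, fell to 101.7 and 110.0 CPM in the libraries labelled knockout, against 142.9 and 146.9 CPM in the controls (log2 fold change -0.45 ± 0.07, edgeR adjusted p 3e-05). The other that fell was Mybl2, a cell cycle factor (-0.18; chosen after its values were seen). Myc, which promotes growth, rose to 12.7 and 14.2 CPM in the libraries labelled knockout, against 7.39 and 7.35 CPM in the controls (0.87 ± 0.15). Rif1, a replication timing factor, was at 1595 and 1594 CPM in libraries labelled knockout and at 1349 and 1311 CPM in the controls (0.26 ± 0.06), and its call was lost without control 2 (edgeR adjusted p 0.059). The number of partners that rose was 12 without labelled knockout library 1 and 4 without control 1 or control 2, and the number that fell was 1 without control 1.

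Targets shared by Pou5f1 and Sox2 moved both ways. For comparison, 16.5% of all genes tested were called higher and 17.2% lower. Of 6 tested, 3 fell and 2 rose (1 without control 1), with a median log2 fold change of -0.10. Fgf4, a growth factor with a classic joint Pou5f1 and Sox2 site in its enhancer, fell to 110.1 and 103.9 CPM in the libraries labelled knockout, against 209.7 and 207.8 CPM in the controls (log2 fold change -0.96 ± 0.07, edgeR adjusted p 8.7e-10). Tdgf1, a Nodal co-receptor, fell to 790.4 and 779.0 CPM in the libraries labelled knockout, against 942.2 and 1023 CPM in the controls (-0.32 ± 0.06). The third to fall was the secreted phosphoprotein gene Spp1 (-0.31; chosen after its values were seen). Fbxo15, an F-box gene used to report reprogramming, rose to 307.9 and 275.4 CPM in the libraries labelled knockout, against 192.7 and 185.5 CPM in the controls (0.63 ± 0.07). Utf1, which is also among the partners, was the other to rise (0.26; chosen after its values were seen), although its lower labelled knockout value of 83.9 CPM lay under the higher control of 84.6 CPM.

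Factors through which cells leave the naive state moved in both directions. Their counts stand beside 16.5% of all genes tested called higher and 17.2% called lower. Of 18 tested, 9 rose and 5 fell, with a median log2 fold change of 0.17; the counts were 5 and 3 without control 1, and 5 and 2 without control 2. Tcf7l1, the Wnt-pathway repressor of naive genes including Esrrb and Nanog, rose to 17.8 and 19.4 CPM in the libraries labelled knockout, against 9.75 and 11.7 CPM in the controls (log2 fold change 0.80 ± 0.13, edgeR adjusted p 1.0e-04). Ptpn11, a phosphatase that relays FGF signals to ERK, rose to 94.0 and 90.9 CPM in the libraries labelled knockout, against 70.0 and 70.5 CPM in the controls (0.40 ± 0.07). Fnip1, a partner of folliculin, fell to 172.0 and 172.1 CPM in the libraries labelled knockout, against 242.1 and 246.6 CPM in the controls (-0.51 ± 0.06, edgeR adjusted p 3.1e-06). The other 4 that fell, named after their values were seen, were Fnip2 (-0.35), Tsc1 (-0.27), Flcn (-0.22) and Tsc2 (-0.21). With Fnip1 they encode parts of the folliculin and tuberous sclerosis complexes, which act on lysosomal mTORC1 signalling.

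Relatives of the factors by sequence were also measured. The counts called in each family, here and below, stand beside 33.6% of all genes tested, 16.5% higher and 17.2% lower. No test was made over a family as a set. Of 13 other Krüppel-like factor genes tested 4 fell, with a median log2 fold change of -0.08; 6 fell without labelled knockout library 2. Klf10, a repressor induced by TGF-beta, fell to 171.3 and 168.1 CPM in the libraries labelled knockout, against 323.7 and 312.8 CPM in the controls (log2 fold change -0.91 ± 0.06, edgeR adjusted p 1.1e-09). Klf15 (-0.71) and Klf11 (-0.41) fell as well, as did Klf6 (-0.44; chosen after its values were seen). Of 14 other Sox genes tested 1 rose and 2 fell, with a median of 0.18; without labelled knockout library 1, 2 rose. Sox1, an early neural gene, fell to 0.898 and 1.13 CPM in the libraries labelled knockout, against 3.58 and 4.45 CPM in the controls. Sox4 fell too (-0.41), and Sox7, an endoderm gene, was called higher with 44 and 32 counts in the libraries labelled knockout and 12 and 6 counts in the controls.

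Other POU genes were mostly low. Of 8 tested, with a median log2 fold change of -0.19, Pou6f1 rose (0.72 ± 0.17) while Pou2f2 (-0.91 ± 0.24) and Pou4f2 (-0.59 ± 0.20) fell. The Pou2f2 call was lost without control 1 (edgeR adjusted p 0.059). That of Pou4f2 was lost under DESeq2 (adjusted p 0.104) and, by edgeR, without labelled knockout library 1, control 1 or control 2 (adjusted p 0.061, 0.0501 and 0.116). Among 7 other T-box genes tested, with a median of 0.32, 1 was called: Tbx21 was higher, with 50 and 20 counts in the libraries labelled knockout and 4 and 9 counts in the controls. That call was lost without labelled knockout library 1 (edgeR adjusted p 0.183), and without library 2 the number called higher was 2. Sox7 and Tbx21 passed the filter on low counts through the libraries labelled knockout.

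Of 7 tested relatives of Esrrb, Tfcp2l1 and Zfp42, 3 rose, with a median of -0.01. Grhl2, an epithelial factor of the wider Tfcp2l1 family, rose to 29.9 and 31.8 CPM in the libraries labelled knockout, against 13.9 and 15.6 CPM in the controls (log2 fold change 1.06 ± 0.11, edgeR adjusted p 4e-07). Grhl3, a gene of the same family (0.41), and Yy1, from which Zfp42 derives (0.38), rose too.

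The genes closest in profile to each core factor were sought among 7108 genes of at least 20 CPM, by the root mean square difference of log2 CPM over the 4 libraries after centring. For Pou5f1 they were Tle3 and Tm7sf3 (0.0042 and 0.0069), for Sox2 Cct4 and Prkaa2 (0.010 and 0.012), and for Nanog Pik3r4 and Dicer1 (0.0066 and 0.0076). Prkaa2 and Pik3r4 were not themselves called (edgeR adjusted p 0.081 and 0.068). With 4 libraries and so many candidates, distances this small can arise by chance, and they were not tested.

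Of the other marker lists, the summed level was higher in the libraries labelled knockout for 2-cell-like, primitive endoderm, primed epiblast, trophoblast and mesendoderm markers. It overlapped between the groups for neural and fibroblast markers. Beside the counts called in these lists, 16.5% of all genes tested were called higher and 17.2% lower. Summed over 10 markers of 2-cell-like cells, the level was 63.1 and 70.4 CPM in the libraries labelled knockout, against 0.816 and 0.327 CPM in the controls. In the controls 6 of these 10 markers, among them Zfp352 and Duxf3, had 0 counts. Primitive endoderm markers summed to 292.2 and 289.8 CPM in the libraries labelled knockout, against 201.3 and 189.8 CPM in the controls. Lama1, a laminin gene, gave much of these sums with little difference, at 95.3 and 89.7 CPM in libraries labelled knockout and 99.4 and 92.3 CPM in the controls. The endocytic receptor gene Lrp2 gave 112.4 and 119.5 CPM in the libraries labelled knockout and 70.3 and 67.5 CPM in the controls, the largest single part of the difference. Of 11 tested 8 were called higher, of which Sox7 passed the filter on low counts through the libraries labelled knockout. Gata6, a lineage factor that opposes Nanog, was low in level, at 4.58 and 4.08 CPM in libraries labelled knockout and 0.589 and 0.858 CPM in the controls (log2 fold change 2.56). Primed epiblast markers summed to 426.8 and 463.7 CPM in the libraries labelled knockout and to 243.1 and 259.2 CPM in the controls, and 5 of 7 tested were called higher. Dnmt3b alone gave 232.5 and 257.5 CPM of these sums in the libraries labelled knockout and 92.7 and 103.5 CPM in the controls, while Fgf5, a defining marker, had between 1 and 6 counts per library.

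Trophoblast markers summed to 130.9 and 139.0 CPM in the libraries labelled knockout and to 85.6 and 84.3 CPM in the controls, with 2 of 5 tested higher and 1 lower. Most of these sums came from Tfap2c, which the germline and epiblast also express, at 91.0 and 94.4 CPM in libraries labelled knockout and 53.8 and 51.6 CPM in the controls. The defining Cdx2 had 3 and 1 counts in the libraries labelled knockout and 0 in the controls. Mesendoderm markers summed to 11.1 and 9.92 CPM in the libraries labelled knockout and to 7.66 and 7.47 CPM in the controls, with 1 of 3 tested called higher. That was Kdr, at 23 and 14 counts in the libraries labelled knockout and 3 and 7 counts in the controls. Kdr passed the filter on low counts through the libraries labelled knockout. Eomes, which the trophoblast list shares, supplied most of each sum: 8.51 and 8.07 CPM under the knockout label, 6.21 CPM in either control. Eomes was not called (edgeR adjusted p 0.060). Mixl1 was higher without a call (edgeR adjusted p 0.138). The defining gene T, too low to be tested, went the other way, with 5 and 1 counts against 10 and 11 in the controls. Gsc, Mesp1 and Foxa2 had at most 9 counts per library and overlapped between the groups. Neural markers overlapped, at 83.0 and 87.5 CPM in libraries labelled knockout and 85.8 and 89.6 CPM in the controls, with 1 of 6 tested higher and 2 lower. Fibroblast markers overlapped as well, at 16.0 and 19.5 CPM in libraries labelled knockout and 19.0 and 17.9 CPM in the controls, with Postn, Dcn and Lum at 0 in all 4 libraries. What part these states, or the share of ribosomal-RNA-like reads, had in the values of the 10 factors was not tested.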

How the data were processed

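Per the labels' protocols, total RNA was depleted of ribosomal RNA, primed with random primers in actinomycin D and sequenced from both ends. Reads were trimmed, aligned or counted with cutadapt, HISAT2 and featureCounts on mm10, per the submitters' processing notes; the sources used here give no version, annotation, strand setting or rule for multi-mapping reads. The authors deposited raw counts per gene symbol in 1 table, of which 0 columns were left unmapped; its column names carry OK where the sample titles carry KO.

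In R 4.3.3, edgeR 4.0.16 kept 17482 genes (filterByExpr with a count of at least 10 and a total of at least 15), scaled libraries by TMM and ran glmQLFTest without covariates on 2 residual degrees of freedom. P-values are 2-sided and Benjamini-Hochberg adjusted across the genes kept; calls are at 0.05. The fit shares information on spread across genes. Its tests and 95% intervals therefore use total degrees of freedom, which exceed the 2 residual ones. The standard error is the size of the log2 fold change over the square root of F. Levels per kb use the merged exons of GENCODE M21 on mm10. The test was tested on simulated data. Chi-square per degree of freedom was 11.5 between the libraries labelled knockout and 3.37 between the controls, so neither pair was 1 library deposited again.

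The 10 genes, the other lists and the tests were chosen with earlier results of these data known. Named genes are the 10, Ssrp1, Supt16, the noncoding genes beside Sox2 and Tbx3, the 3 smallest adjusted p past the threshold in each list, and the 2 profiles nearest to each core factor. Alternatives were scaling by library size alone or by RLE, DESeq2 1.42.0, other filters, leaving out ribosomal-RNA-like and mitochondrial genes, a replicate block and leaving out each library.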

Additional observations from a re-analysis of the deposited data

How the results depend on the processing

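Pou5f1, Klf2, Klf4, Esrrb, Tbx3 and Tfcp2l1 kept their direction and call under all 11 alternatives run, and the median log2 fold change of the 10 factors ranged from -0.36 to -0.26. With scaling by library size alone, which shifts the median of all genes by 0.083, Sox2 was at -0.13 and Klf5 at -0.14 (edgeR adjusted p 0.214 and 0.211), neither called, and Zfp42 turned to 0.019. Rises then made up 63.7% of calls, against 48.95%. Under DESeq2 Sox2 was at -0.20 and Klf5 at -0.21, and at a filter of 5 CPM in 2 libraries Sox2 was at -0.19 and Klf5 at -0.20, none of them called. Leaving out each library gave ranges of -0.37 to -0.069 for Sox2, 0.13 to 0.20 for Nanog, -0.35 to -0.094 for Klf5 and -0.13 to 0.42 for Tbx3os1. Over the same fits 0 to 1 factors were called higher and 6 to 7 lower, and 1915 to 2995 of all genes higher.

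With scaling by library size alone, 1 Krüppel-like, 2 Sox, 3 T-box and 12 partner genes were higher, and 1 POU gene, 1 partner and 2 exit factors lower. Under DESeq2 1 shared target was higher, and 1 POU gene and 3 exit factors lower. Without a filter 1 Krüppel-like gene was higher, and at 5 CPM 0 Sox genes were higher and 1 Sox and 1 POU gene lower. Leaving out single libraries gave 0 to 2 Krüppel-like, 1 to 2 Sox, 0 to 2 T-box, 4 to 12 partner, 1 to 2 target and 5 to 10 exit genes higher, and 0 to 2 POU, 1 to 3 partner and 2 to 4 exit genes lower. The counts gave no sign that the replicate numbers pair the samples (correlation of replicate differences 0.026 over 10229 genes, 2 pairs). This cannot show how the samples were handled. With the replicate block 1 factor was higher and 8 lower, with 1 Krüppel-like and 2 Sox genes higher. The cause of these differences was not tested.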
